A study of Glycine max with 12 samples.

Results

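In soybean flower buds, 8 genes passed limits set to find transcripts that heat nearly silences. They were chosen by their own normalised read counts (CPM, the reads of a gene divided by all reads counted in the library, times 1000000). A gene had to reach a mean of 5 CPM or more at normal temperature (NT) in both lines and to stay under a mean of 0.5 CPM at high temperature (HT) in both lines. The deposited table lists 52872 genes with Glyma identifiers and 936 new genes, 53808 in all. Of the Glyma genes, 25919 reached the NT limit and 14178 lay under the HT limit, and 8 met both (0.0309% of the 25919). No new gene met both limits (0 of 936). For 7 of the 8 genes the NT means rested on reads in every NT library, and for 1, *Glyma.05G188600*, on 1 library of each line. The limits were set on group means, and 1 gene, *Glyma.05G160100*, met them in every single library.

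The libraries came from flower buds of TL1, the cultivar Tianlong No. 1, and of *GmMYB21a-OE2*, made in TL1 with a vector that overexpresses the MYB transcription factor *GmMYB21a*. Plants of each line flowered at NT (28 °C by day and 22 °C by night) or at HT (40 °C and 34 °C), with 3 libraries in each of the 4 groups and no further treatment. *GmMYB21a-OE2* is 1 transgenic line, so an effect of *GmMYB21a* and one particular to that line cannot be told apart. Buds were taken from the top, middle and bottom of the plants and mix organs and stages. All 12 libraries are entered as high temperature under treatment, and the titles, which place 6 of them at NT, were followed instead. The libraries of a group are biological replicates by the methods of the study, which do not say how many plants went into each.

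The developing anther is the heat-sensitive organ of many flowers. Its tapetum, the cell layer around the pollen mother cells, feeds the young pollen and supplies its outer wall, the exine. Plant cells under heat also turn down many genes while chaperone genes are switched on. In bulk RNA of a bud, fewer cells of a type and less RNA per cell cannot be told apart.

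Total counts lay between 32058303 and 39654590 per library. *GmMYB21a* (*Glyma.19G006500*) had 5.25 to 6.32 CPM in TL1 and 36.3 to 40.3 CPM in *GmMYB21a-OE2* at NT, and 0.811 to 1.12 CPM and 10.5 to 12.2 CPM at HT, so the line labels fitted the transgene. Replicate 3 of *GmMYB21a-OE2* at HT stood apart from its group (chi-square per degree of freedom of 15.5 and 12.2 against its mates, and 2.74 to 5.25 for all other pairs of replicates). Without it the limits still chose 8 genes. None of the 8 is paired with a name or function in the rows that could be read of the tables used here, so they are described by identifier. Their identifiers place 3 on chromosome 5, 2 on chromosome 17 and 1 each on chromosomes 6, 10 and 11, and no pair of them is adjacent in identifier order. CPM is not corrected for gene length, so levels are compared between libraries and not between genes.

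The heat change of the 8 genes was the basis of their selection and is given as a description without a test. In 7 of the 8, all 6 NT libraries lay above all 6 HT libraries. Such a separation held for 29.9% of the 25919 genes at 5 CPM or more at NT, and nothing is read from the members' count, since the limits used this contrast. What sets the 7 apart by selection is the depth of the drop. Their HT means were 1.71% to 7.83% of the NT means in TL1 (median 3.71%) and 1.19% to 5.82% in *GmMYB21a-OE2* (median 2.63%). Over the 25919 genes the median was 100.2% in TL1 and 104.7% in *GmMYB21a-OE2*. The lowest NT library of each gene still exceeded its highest HT library by 9.06-fold to 20.9-fold.

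**Figure D1:**
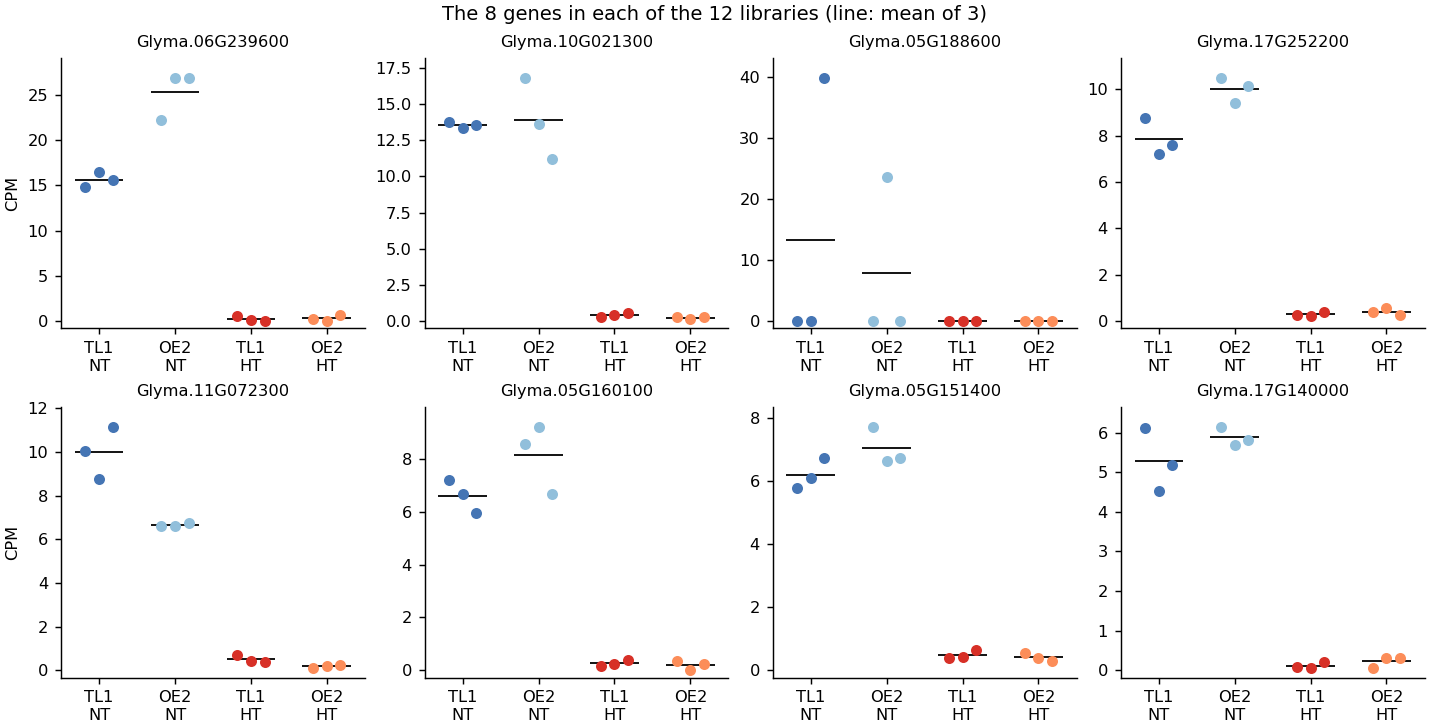
CPM (linear axis, a separate scale for each gene) of the 8 genes in each of the 12 libraries, 3 points per group, with the group mean as a line. In 7 genes every HT library lies under every NT library, and *Glyma.05G188600* has reads in 1 NT library of each line and in no other.

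*Glyma.06G239600* exhibited the deepest drop of the 7 in both lines. In TL1 its libraries had 14.8, 16.5 and 15.6 CPM at NT and 0.614, 0.127 and 0.0606 CPM at HT. In *GmMYB21a-OE2* they had 22.2, 26.8 and 26.9 CPM at NT and 0.196, 0 and 0.709 CPM at HT. The HT mean was 58.6-fold lower than the NT mean in TL1 and 83.8-fold lower in *GmMYB21a-OE2*. The residue at HT was uneven: 22, 5 and 2 reads in TL1 and 7, 0 and 27 reads in *GmMYB21a-OE2*, so that 1 library of each line held most of it. The library at 0 reads allows up to 0.0757 CPM (3 counts, covering counting error only). Of the 7 genes tested between the lines at NT, it had the largest log2 fold change, as described further on.

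*Glyma.10G021300* had nearly the same NT mean in both lines, 13.6 ± 0.241 CPM in TL1 and 13.9 ± 2.81 CPM in *GmMYB21a-OE2* (SD, n = 3). The TL1 libraries were tight at 13.8, 13.3 and 13.6 CPM, and those of *GmMYB21a-OE2* spread over 16.8, 13.6 and 11.2 CPM. At HT it was left with 0.307, 0.431 and 0.576 CPM in TL1 and 0.253, 0.177 and 0.262 CPM in *GmMYB21a-OE2*. Every HT library of *GmMYB21a-OE2* was under every HT library of TL1, on counts of 7 to 10 reads against 11 to 19. The drop was 31.0-fold in TL1 and 60.3-fold in *GmMYB21a-OE2*.

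*Glyma.11G072300* was the gene of the 7 with less transcript in *GmMYB21a-OE2* at both temperatures. At NT it had 10.1, 8.77 and 11.2 CPM in TL1 and 6.61, 6.62 and 6.73 CPM in *GmMYB21a-OE2*. At HT it had 0.697, 0.431 and 0.364 CPM in TL1 and 0.112, 0.177 and 0.236 CPM in *GmMYB21a-OE2*. The libraries of the lines did not overlap at either temperature, at HT on counts of 12 to 25 reads against 4 to 9. The difference at HT was not called, as described further on. The HT mean was 4.97% of the NT mean in TL1 and 2.63% in *GmMYB21a-OE2*.

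On chromosome 17, *Glyma.17G252200* had 8.75, 7.23 and 7.61 CPM at NT in TL1 and 10.5, 9.41 and 10.2 CPM in *GmMYB21a-OE2*. Its HT libraries held 0.279, 0.203 and 0.394 CPM in TL1 and 0.393, 0.555 and 0.262 CPM in *GmMYB21a-OE2*. The lines were apart at NT and overlapped at HT, and the HT share of the NT mean was alike in them, 3.71% and 4.02%. *Glyma.17G140000* had 6.13, 4.53 and 5.18 CPM at NT in TL1 and 6.15, 5.70 and 5.81 CPM in *GmMYB21a-OE2*. At HT it was left with 0.115 ± 0.0853 CPM in TL1 (SD, n = 3; 3, 2 and 7 reads) and 0.225 ± 0.146 CPM in *GmMYB21a-OE2* (2, 12 and 12 reads). These few reads overlap between the lines and give no order of them.

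On chromosome 5, *Glyma.05G160100* had 7.19, 6.67 and 5.96 CPM at NT in TL1 and 8.56, 9.22 and 6.67 CPM in *GmMYB21a-OE2*, and 6, 9 and 13 reads against 12, 0 and 9 reads at HT. It was the gene of the 8 that met the limits in every single library and not only in the group means. *Glyma.05G151400* had 5.77, 6.11 and 6.74 CPM at NT in TL1 and 7.72, 6.65 and 6.73 CPM in *GmMYB21a-OE2*. Its drop was the shallowest of the 7, 12.8-fold in TL1 and 17.2-fold in *GmMYB21a-OE2*, with 14, 17 and 21 reads left in TL1 and 20, 15 and 11 in *GmMYB21a-OE2*. Both genes overlapped between the lines at HT.

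**Figure D2:**
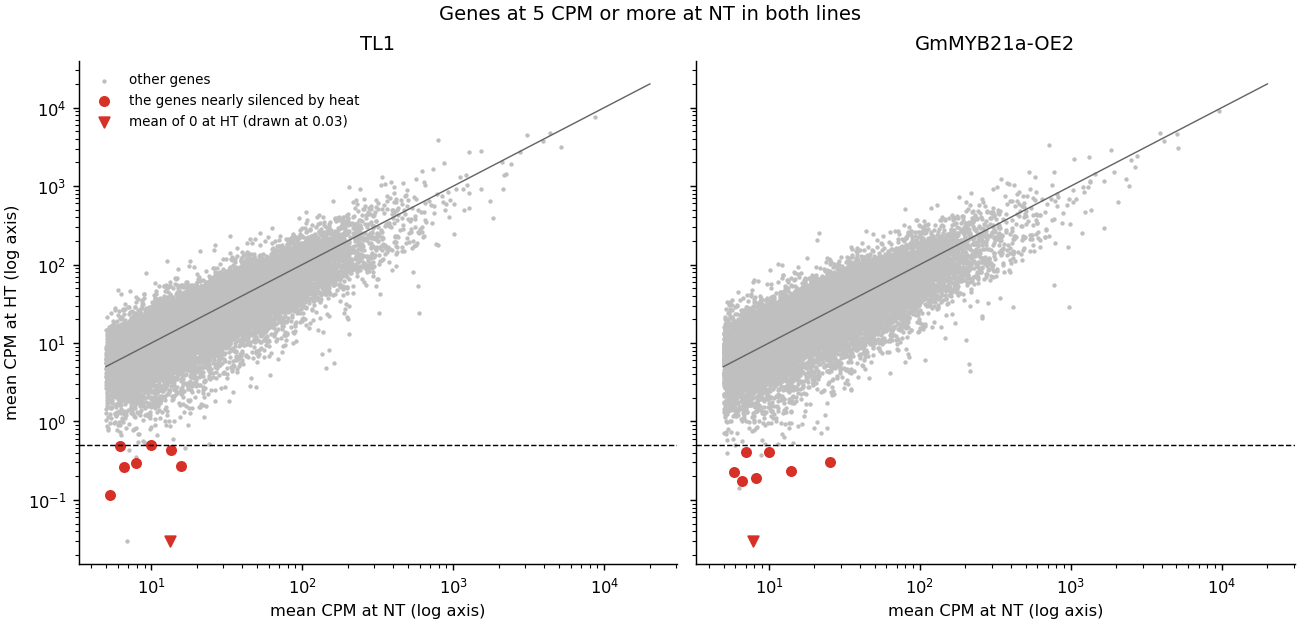
Mean CPM at HT against mean CPM at NT (log axes) of the 25919 Glyma genes at 5 CPM or more at NT in both lines, for TL1 and *GmMYB21a-OE2*, with the solid line at equal means and the dashed line at 0.5 CPM. The 8 chosen genes (red) lie under the dashed line in both panels, and means of 0 at HT are drawn at 0.03 CPM.

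Complete absence was not the rule at HT. Of the 42 HT counts of the 7 genes, 2 were 0, and the others ran from 2 to 27 reads. The relative spread was wider between the HT libraries than between the NT libraries. Counting error weighs more at so few reads, and its part in this spread was not tested. The coefficient of variation over the 7 genes was 1.78% to 15.2% at NT in TL1 and 0.980% to 20.3% in *GmMYB21a-OE2*. At HT it was 27.1% to 113% in TL1 and 20.4% to 121% in *GmMYB21a-OE2*. Summed over the 7 genes, the level was steadier. The sum was 63.1 to 66.5 CPM at NT in TL1 (mean 65.1 ± 1.77, SD, n = 3) and 74.2 to 78.5 CPM in *GmMYB21a-OE2* (76.9 ± 2.38). At HT it was 1.90 to 2.64 CPM in TL1 (2.36 ± 0.399) and 1.59 to 2.31 CPM in *GmMYB21a-OE2* (1.94 ± 0.361). The sums did not overlap between the lines at NT and did at HT. Most of the difference at NT came from *Glyma.06G239600*, with NT means of 15.6 CPM in TL1 and 25.3 CPM in *GmMYB21a-OE2*. *Glyma.11G072300* went the other way. The separation of the sums at NT is therefore not read as a shift of the whole set.

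*Glyma.05G188600* entered the set through 1 NT library in each line. It had 0, 0 and 1280 reads in TL1 at NT, 0, 868 and 0 reads in *GmMYB21a-OE2* at NT, and 0 reads in all 6 HT libraries, each of which allows up to 0.0757 to 0.0909 CPM. Its NT means of 13.3 ± 23.1 CPM and 7.85 ± 13.6 CPM (SD, n = 3) therefore have an SD larger than the mean. The next gene below it in identifier order, *Glyma.05G188500*, was low in just those libraries, with 2224, 2070 and 863 reads in TL1 and 2191, 1072 and 2007 reads in *GmMYB21a-OE2* at NT. The reads of both genes together came to 2224, 2070 and 2143 in TL1 and to 2191, 1940 and 2007 in *GmMYB21a-OE2*. The sum was thus steady across the NT libraries while its division between the genes was all or part.

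At HT the pair held 677, 847 and 705 reads in TL1 and 812, 826 and 698 reads in *GmMYB21a-OE2*, all of them on *Glyma.05G188500*. In CPM the pair went from 63.4 ± 3.01 to 20.6 ± 1.47 in TL1 and from 55.9 ± 3.37 to 20.6 ± 2.24 in *GmMYB21a-OE2* (SD, n = 3), a drop far short of the limits of the set. The sources used here do not say how reads of overlapping or similar genes were assigned, and its part in this pattern was not tested. A count of at least 100 reads in 1 library beside 0 in the other 2 of its group occurred in 4 Glyma genes, of which 1 is among the 8. Results on line differences below leave this gene out, since it did not pass the filter on low counts.

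**Figure D3:**
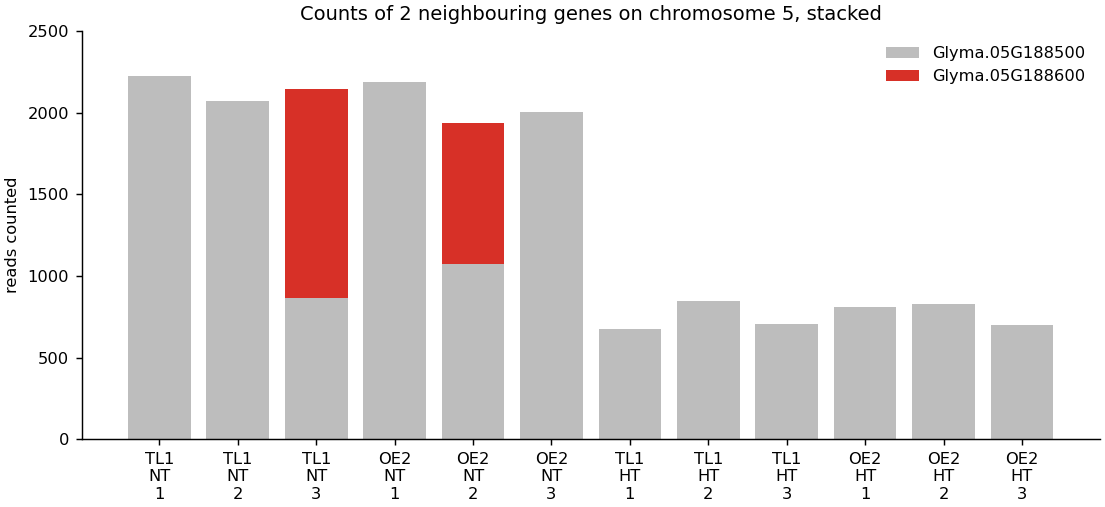
Reads counted (linear axis from 0) on *Glyma.05G188500* (grey) and *Glyma.05G188600* (red), stacked, in each of the 12 libraries. The stacked height stays between 1940 and 2224 reads at NT and between 677 and 847 at HT, and red appears in 1 NT library of each line.

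The limits cut through a continuous range. Just inside the HT limit were *Glyma.11G072300* (0.497 CPM in the higher of its HT group means), *Glyma.05G151400* (0.486 CPM) and *Glyma.10G021300* (0.438 CPM). Just outside it were *Glyma.13G072100* (0.512 CPM), *Glyma.19G137700* (0.561 CPM) and *Glyma.05G023900* (0.587 CPM). At the NT limit, *Glyma.17G140000* (5.28 CPM in the lower of its NT group means), *Glyma.05G151400* (6.20 CPM) and *Glyma.05G160100* (6.60 CPM) were the nearest inside, and *Glyma.18G222900* (4.74 CPM), *Glyma.14G154400* (4.70 CPM) and *Glyma.12G189300* (4.53 CPM) the nearest outside.

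Absolute limits also pass over genes with more reads and as steep a drop. Of the 25919 genes, 17 had HT means under 1/16 of the NT means in both lines, 7 of them among the 8 genes (all but *Glyma.05G151400*) and 10 others. These 7 include *Glyma.05G188600*, whose NT means rest on 1 library of each line. The 10 others had NT means of 7.91 to 595 CPM in TL1. *Glyma.09G275500*, with the most reads of the 10, went from 595 to 24.1 CPM in TL1 and from 978 to 28.5 CPM in *GmMYB21a-OE2*. Its shares of 4.05% and 2.91% lie within the range of the 7 genes other than *Glyma.05G188600*. Between the lines at NT, 4 of the 10 were higher in *GmMYB21a-OE2* at an adjusted p below 0.05 by edgeR's quasi-likelihood test, *Glyma.09G275500* among them (log2 fold change 0.77 ± 0.049, SE, adjusted p = 2.17e-10). Another 2 were lower, *Glyma.15G004300* (-0.42, adjusted p = 0.000133 by edgeR) and *Glyma.09G202000* (-0.28, adjusted p = 0.000337 by edgeR), and the others of the 10 did not pass. Over all 41292 genes tested, 5.97% were higher and 4.86% lower. The 10 were chosen after their values were seen, so nothing is read from their counts.

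The contrast of the lines was not itself used to choose the genes. The limits were set on each line, however, and left out genes that missed them in 1 line. *Glyma.18G222900*, for example, had 4.74 CPM in TL1 and 7.66 CPM in *GmMYB21a-OE2* at NT. The contrast was tested with edgeR's quasi-likelihood test over all genes, with Benjamini-Hochberg adjustment. At NT, 7 of the 8 genes passed the filter on low counts. None of the 7 was called at an adjusted p below 0.05 with an absolute log2 fold change of 1 or more, against 0.949% of the 41292 genes tested (4 of the 7 and 24.2% of all genes had an unadjusted p below 0.05, and DESeq2 called 0 of the 7). With no fold threshold, 2 of the 7 were higher in *GmMYB21a-OE2*, where 5.97% of all genes were, and 1 was lower, where 4.86% were. The median log2 fold change was 0.23 over the 7 genes and -0.0061 over all genes, and 6 of the 7 values and 48.7% of all values were above 0.

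*Glyma.06G239600* was 1.68-fold higher in *GmMYB21a-OE2* at NT, with a log2 fold change of 0.75 ± 0.084 (SE, 95% interval 0.57 to 0.92, adjusted p = 1.44e-06 by edgeR). The adjusted p over the alternative settings ran from 2.26e-12 to 0.0439, and all 3 libraries of *GmMYB21a-OE2* exceeded all 3 of TL1. *Glyma.17G252200* was higher too, with a log2 fold change of 0.40 ± 0.10 (SE, adjusted p = 0.0134 by edgeR). This call was lost without TL1 replicate 2 (adjusted p = 0.0761 by edgeR), without TL1 replicate 3 (0.0620) and with all 12 libraries in one fit (0.103). *Glyma.11G072300* was lower in *GmMYB21a-OE2*, its log2 fold change being -0.54 ± 0.11 (SE, 95% interval -0.76 to -0.31, adjusted p = 0.00187 by edgeR, 0.000758 to 0.0351 over the alternatives).

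The remaining 4 genes did not pass the test at NT. *Glyma.05G160100* had a log2 fold change of 0.35 (95% interval 0.093 to 0.61, adjusted p = 0.0750 by edgeR), and it passed without *GmMYB21a-OE2* replicate 3 (adjusted p = 0.0191 by edgeR). *Glyma.05G151400* had 0.23 (95% interval -0.0078 to 0.47, adjusted p = 0.225 by edgeR) and *Glyma.17G140000* 0.21 (95% interval -0.065 to 0.48, adjusted p = 0.367 by edgeR). *Glyma.10G021300* had 0.086 (95% interval -0.13 to 0.30, adjusted p = 0.689 by edgeR), and its sign turned when *GmMYB21a-OE2* replicate 1 was left out (-0.064). The upper bounds show that a change as large as that of *Glyma.06G239600* lies outside the intervals of these 4 genes.

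**Figure D4:**
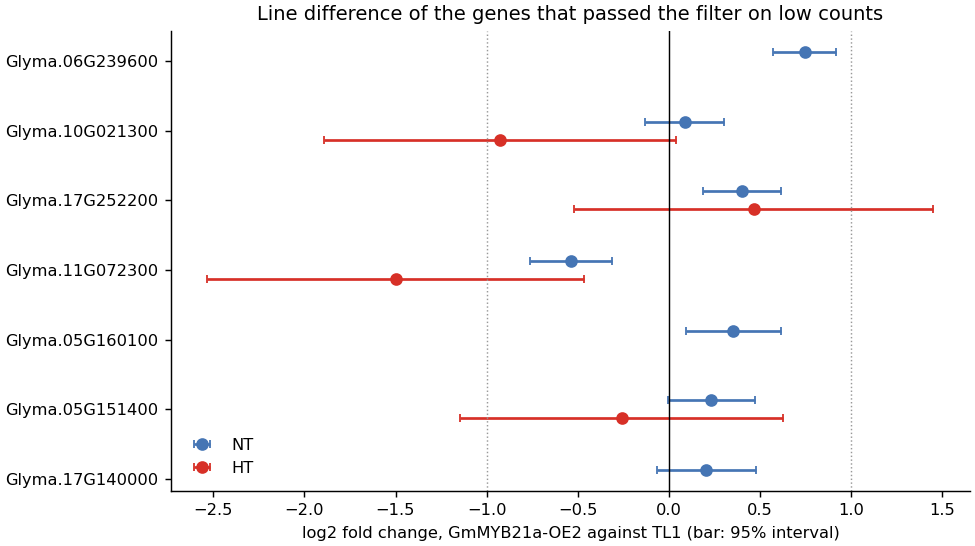
Log2 fold change of *GmMYB21a-OE2* against TL1 with its 95% interval at NT (blue, 7 genes) and HT (red, 4 genes), for the genes that passed the filter on low counts, with dotted lines at 1 and -1. At NT *Glyma.06G239600* (0.75) and *Glyma.17G252200* (0.40) lie above 0 and *Glyma.11G072300* (-0.54) below, and the HT intervals are much wider.

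At HT only the residue of the transcripts was left to compare, and 4 of the 8 genes passed the filter on low counts. None of the 4 was called, against 2.41% of the 41260 genes tested (1 of the 4 and 10714 of all genes had an unadjusted p below 0.05, and DESeq2 called 0 of the 4). *Glyma.11G072300* and *Glyma.10G021300* passed the filter through the TL1 libraries, where they were higher: 3 of 3 TL1 libraries and 0 of 3 of *GmMYB21a-OE2* reached its level of 0.270 CPM. That both were lower in *GmMYB21a-OE2* is therefore no support for a direction of the set. *Glyma.11G072300* came nearest, with a log2 fold change of -1.50 ± 0.48 (SE, 95% interval -2.53 to -0.47, adjusted p = 0.0616 by edgeR). It passed when all 12 libraries were fitted together (-1.54, adjusted p = 0.00464 by edgeR) and without *GmMYB21a-OE2* replicate 3, the library that stood apart (-1.78, adjusted p = 0.0493 by edgeR), and over all alternatives the adjusted p ran from 0.00464 to 0.238. With no filter on low counts it was 0.108 by edgeR. Whether its line difference at HT differs from that at NT was not tested.

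*Glyma.10G021300* had a log2 fold change of -0.93 ± 0.45 at HT (SE, 95% interval -1.89 to 0.036, adjusted p = 0.210 by edgeR). *Glyma.17G252200* had 0.47 (95% interval -0.52 to 1.45, adjusted p = 0.569 by edgeR) and *Glyma.05G151400* -0.26 (95% interval -1.14 to 0.62, adjusted p = 0.742 by edgeR). Each of these 3 intervals takes in a change of 2-fold in 1 direction, so a difference of that size is not excluded for any of them. *GmMYB21a* itself differed by a log2 fold change of 3.60 at HT (adjusted p = 4.09e-09 by edgeR) and of 2.78 at NT (adjusted p = 1.13e-16 by edgeR). That the 7 genes were down to a few reads in both lines was required by the limits, so nothing about the transgene is read from it.

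The neighbourhood of the genes was described from the 3 Glyma genes on each side in identifier order, as far as they had 1 CPM or more at NT in both lines. Of these 32 neighbours, 8 had HT means below 50% of the NT means in both lines, beside 10.2% of the 34894 Glyma genes at that level. The 8 lay beside 5 of the genes. *Glyma.17G140000* had 2 of 3, and its neighbour *Glyma.17G140200* went from 22.3 to 1.14 CPM in TL1 and from 24.3 to 1.74 CPM in *GmMYB21a-OE2*, shares of 5.11% and 7.15%. On the other side *Glyma.17G139700* had 7.59 CPM at NT and 1.25 CPM at HT in TL1, and 8.28 and 1.84 CPM in *GmMYB21a-OE2*. Between them *Glyma.17G140100* went the other way, to 117% and 118% of its NT mean, so the low genes did not form an unbroken run.

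*Glyma.17G252200* had 2 of 5 neighbours below 50%, *Glyma.17G251900* (46.0% in TL1 and 33.2% in *GmMYB21a-OE2*) and *Glyma.17G252400* (38.8% and 36.1%). *Glyma.05G188600* had 2 of 5, the *Glyma.05G188500* described above and *Glyma.05G188700*, which went from 73.0 to 7.66 CPM in TL1 and from 71.4 to 8.09 CPM in *GmMYB21a-OE2*. *Glyma.05G151400* had 1 of 4 and *Glyma.11G072300* 1 of 4. The neighbours of *Glyma.06G239600*, *Glyma.10G021300* and *Glyma.05G160100* held 0 such genes. How reads were divided between close copies or overlapping genes cannot be seen from the counts.

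**Figure D5:**
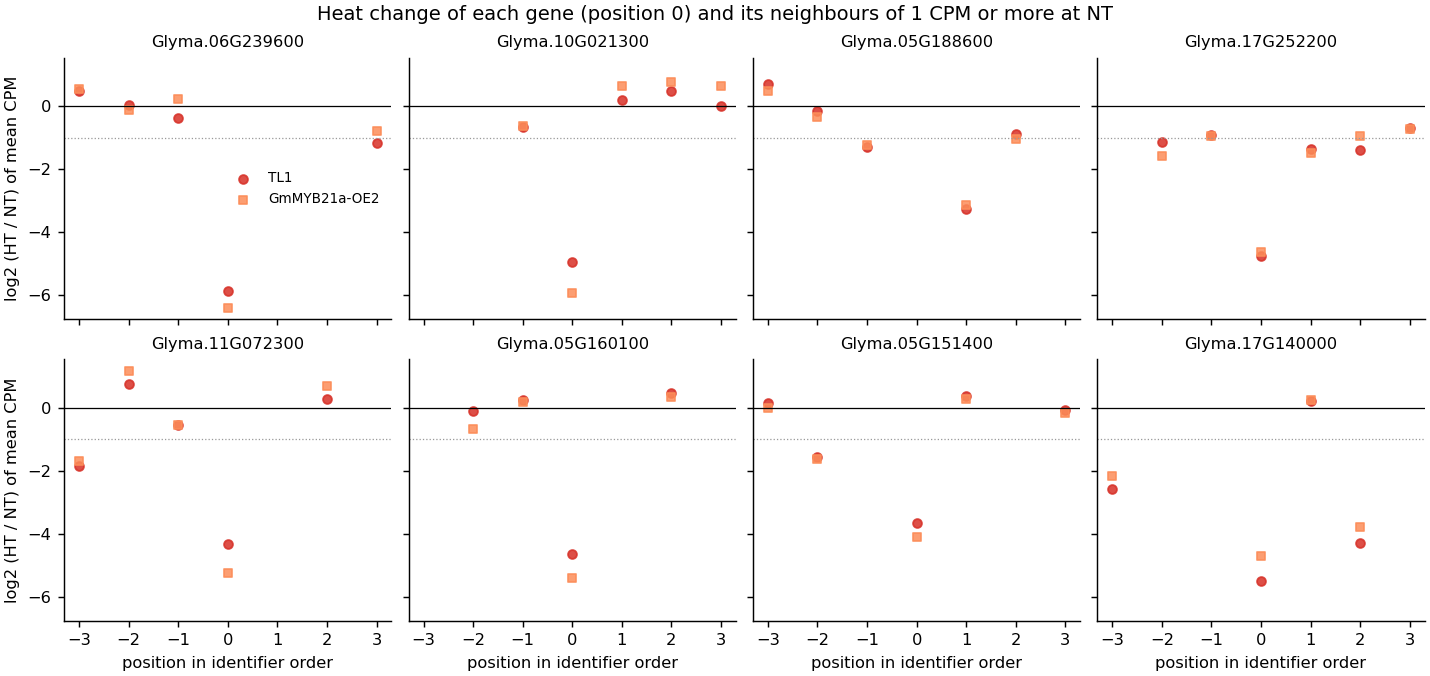
Log2 ratio of the HT mean to the NT mean of CPM (0 means no change, the dotted line at -1 marks 50%) of each of the 8 genes, at position 0, and of its neighbours of 1 CPM or more at NT, by position in identifier order, in TL1 (circles) and *GmMYB21a-OE2* (squares). The dotted line has 8 of the 32 neighbours below it in both lines, *Glyma.17G140200* comes close to *Glyma.17G140000*, and *Glyma.05G188600*, with an HT mean of 0, has no point.

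Marker genes of the anther also had lower means at HT in TL1, and none was among the 8. A list of 10 exine and tapetum genes held 0 of the 8, and its HT means were 6.33% to 48.4% of NT in TL1 and 31.3% to 130% in *GmMYB21a-OE2*. Their summed level was 99.5 to 127 CPM at NT and 24.1 to 24.5 CPM at HT in TL1, and 89.1 to 117 CPM and 80.0 to 104 CPM in *GmMYB21a-OE2*. The 10 genes were thus below 50% of NT in TL1 (10 of 10) and mostly not in *GmMYB21a-OE2* (1 of 10). The share of all genes below 50% was computed for both lines jointly and not for 1 line, so it is no measure for these counts. It was 10.2% of the 34894 Glyma genes at 1 CPM or more at NT in both lines. Of the list, *Glyma.02G169100* was below 50% in both lines (6.33% in TL1 and 31.3% in *GmMYB21a-OE2*). The 7 genes were under 8% of NT in both lines, but the limits of the set required a deep drop in both. The contrast between the list and the 7 genes was shaped by how each was chosen, and nothing is read from it.

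A list of 7 pollen grain and pollen tube genes also held 0 of the 8. Of the 7, 6 were below 50% of NT in each line, with a different exception in each. The share of all genes below 50% was not computed for 1 line alone, so nothing is read from these counts. The HT means of the list were 18.3% to 61.2% of NT in TL1 and 10.6% to 253% in *GmMYB21a-OE2*. The exception in TL1 was *Glyma.13G245800*, annotated as syntaxin-124 (61.2%), and that in *GmMYB21a-OE2* was *Glyma.18G271500*, annotated as ANXUR2, at 0.681 CPM at NT and 1.72 CPM at HT. Their summed level was 60.5 to 67.7 CPM at NT and 14.9 to 16.5 CPM at HT in TL1, and 46.1 to 49.7 CPM and 6.76 to 9.15 CPM in *GmMYB21a-OE2*. None of the 17 genes was at 0 in all libraries. The way they were chosen required this, so nothing about the cell types in the buds is read from it. Both lists were drawn here from the annotated genes that the study called different between the lines at HT, so their line difference at HT is not independent evidence. Their HT levels in each line, and so their heat change, were shaped by the same choice. The part of a change in anther or pollen content in the drop of the 8 genes was not tested.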

How the data were processed

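The authors deposited 1 table of whole-number read counts per gene for the 12 libraries, without normalization. The paper states that reads were trimmed and filtered, and the submitters' processing notes name StringTie 2.1.3b. The aligner, genome build, counting rule and use of strand are not given in the sources used here. 0 rows named no gene. CPM was computed from column sums. Lines were compared within the 6 libraries of each temperature with edgeR 4.0.16 (R 4.3.3): TMM scaling, filterByExpr, quasi-likelihood test, Benjamini-Hochberg adjustment over all genes tested. DESeq2 1.42.0 was an alternative, with RLE size factors, no filter, all 12 libraries, a replicate block, each library left out and other limits. Scripts were tested on simulated data. Every member is named, with the 3 genes nearest each limit. Genes outside that rule (neighbours, steep drops) were chosen after their values were seen. The members and lists were chosen with earlier results of these data known. The RefSeq table paired 0 genes with Glyma identifiers, so no sequence was printed. Tables and figures used Python 3.11.15, pandas 2.3.3 and matplotlib 3.10.9.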

Additional observations from a re-analysis of the deposited data

How the results depend on the processing

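The number of genes chosen depended on the limits: 8 as set, 2 with an HT limit of 0.25 CPM, 29 with 1 CPM, 62 with an NT limit of 2 CPM, 2 with 10 CPM, 1 when every library had to pass, and 9 with TMM library sizes. With 1 library left out it was 6 to 10, lowest without TL1 replicate 1 or 2 at HT. The summed level at HT was 3.01% of NT in TL1 (2.99% to 3.62% over the alternatives) and 2.28% in *GmMYB21a-OE2* (2.03% to 2.52%), the alternative without *Glyma.05G188600* being chosen after seeing the data.

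No gene of the set was called between the lines at NT under any alternative, and 2 to 4 had an adjusted p below 0.05 by edgeR with 1 library left out. At HT 1 was called with all 12 libraries in one fit, and 0 to 1 with 1 library left out (1 without *GmMYB21a-OE2* replicate 3). The log2 fold change of *Glyma.10G021300* at NT ran from -0.064 (without *GmMYB21a-OE2* replicate 1) to 0.22 with 1 library left out. The causes were not tested.

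Replicate numbers were not used to pair the libraries in the main fit. Deviations of same-numbered libraries correlated across 33625 genes at 0.0451, 0.0807 and 0.0222 at NT and at -0.246, -0.0763 and -0.320 at HT. The NT values were weakly positive, but TL1 replicate 3 correlated better with *GmMYB21a-OE2* replicate 1 (0.0328). With 3 libraries per group these values do not settle whether the numbers pair libraries at NT. With the replicate block, 0 genes were called at NT and 0 at HT, and 4 in place of 3 had an adjusted p below 0.05 by edgeR at NT, *Glyma.05G160100* (0.0382) being added. At HT, counts of 0 to 27 reads limit what can be compared.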
